A study of Rattus norvegicus with 2 samples.

Results

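One 2-colour array, of the 2 in the study, set neural precursor cells kept with basic fibroblast growth factor (bFGF) against the same kind of cells after bFGF was taken away, both carrying an empty vector. It was chosen by its label and is called the withdrawal array here. Of 15442 genes with a named probe, 10852 were measured, meaning that at least 1 probe was well above background in at least 1 channel. The other array is labelled as rat Bcl-2 against vector, both with bFGF, and is used here for a check of the labels.

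The cells were primary neural stem cells from the cortex of SD rat embryos at day 14 (E14), grown in N2 medium with 10 ng/mL bFGF. All of them received 4 µg of MSCV-IRES-EGFP, a plasmid that carries a green fluorescent reporter and no added gene, by nucleofection. The transfection was transient, so the cells are a mixed primary culture and not a clone. Per the labels, RNA in green (Cy3) came from cells that stayed in N2 medium with bFGF, and RNA in red (Cy5) from cells moved for 2 days to NB medium without bFGF. Medium and growth factor changed together and cannot be told apart. How many cultures were pooled is not given in the sources used here.

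Basic FGF binds receptor tyrosine kinases on neural precursors and, through the RAS and ERK pathway, keeps them dividing and holds back differentiation. When it is removed, cortical precursors leave the cell cycle over days and form neurons, astrocytes and, later, oligodendrocytes. Growing cells need new membrane, ribosomes and DNA, and so the genes for sterol and fatty acid synthesis, for the nucleolus and for replication are commonly read beside markers of the differentiated cell types.

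With 1 RNA per channel, no dye swap and no second array of these groups, the differences have no replicate to be held against, and none was tested. The spread between spots was measured on 1062 probes that had 9 or 10 kept spots and were well above background in both channels. Their median SD in log2 ratio over spots was 0.04, and the 95th percentile of that SD was 0.13. It covers printing and scanning, not the difference between cultures or dyes, and leaves out dim probes. Probes of the same gene differed more: over 1863 genes with 2 or more kept probes, the lowest and highest lay a median of 0.18 apart. The signal above local background had a median of 192 in green and 289 in red, and 66.4% and 71.9% of gene spots were well above background.

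Which channel held which RNA remains unsettled. Both arrays are labelled with the same dye orientation against the same kind of control RNA, yet their log2 ratios correlated at r = -0.68 over 42011 gene spots (-0.14 with the deposited Feature Extraction ratio). Over 26861 spots the log2 signals of the green channels, labelled alike, differed by an SD of 0.40. Those of the red channel here and the green channel of the other array differed by an SD of 0.14. For the green channel here and the red channel of the other array the SD was 0.15, and for the red channels of both arrays 0.38. Whether an RNA came from other cells than its label says was not tested. Ratios are given as red over green, following the labels. If the sign were turned, each value would change sign, and each count above 0 or higher would become a count below 0 or lower.

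Markers of the labelled cells were present. The precursor genes Nes, Sox2, Vim, Fabp7 and Pax6 were well above background in both channels, as were the neuronal genes Tubb3, Dcx and Map2. Msi1, another precursor gene, was well above background in red alone, but it was not higher in red. Its net signal, not normalized, was 36.5 in red and 83.0 in green, and its log2 ratio was -0.05. Gfap, the intermediate filament of mature astrocytes, C1qa of microglia, Pecam1 of endothelium, and Kl and Folr1 of choroid plexus were not well above background in either channel. Ttr, the other choroid plexus marker, was well above background in both. So were 3 of 4 microglia markers and 2 of 3 endothelium markers on the array. The same held for 4 of 5 astrocyte markers and 5 of 5 markers of the oligodendrocyte lineage, so other cell types are not shown to be absent. Sox1, Rbfox3 and Syp had no named probe.

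Most genes differed little between the channels: 85% lay within 0.5 of 0 on the log2 scale, and the SD over genes was 0.40. A gene was counted as 2-fold where its log2 ratio was at least 1 from 0 and all its kept probes had one sign. By that rule 263 genes were higher in red, 2.42% of those measured, and 51 were lower, 0.47%, or 2.89% together. The counts of each list below are to be read beside these shares. Of the counted genes 83.8% were higher in red (16.2% with the sign turned, which would make 51 higher and 263 lower). The Feature Extraction ratio, without the offset that pulls dim genes towards 0, counted 10.4% of genes, with 8.17% higher and 2.18% lower. In bulk RNA, fewer cells of a type and less RNA per cell cannot be told apart, which holds for every gene and list below. The median over all genes was 0.03, with 54.2% above 0, and it was -0.02 with the Feature Extraction ratio. Median centring in place of loess raised it by 0.14 and put 7384 of the 10852 genes above 0.

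**Figure D1:**
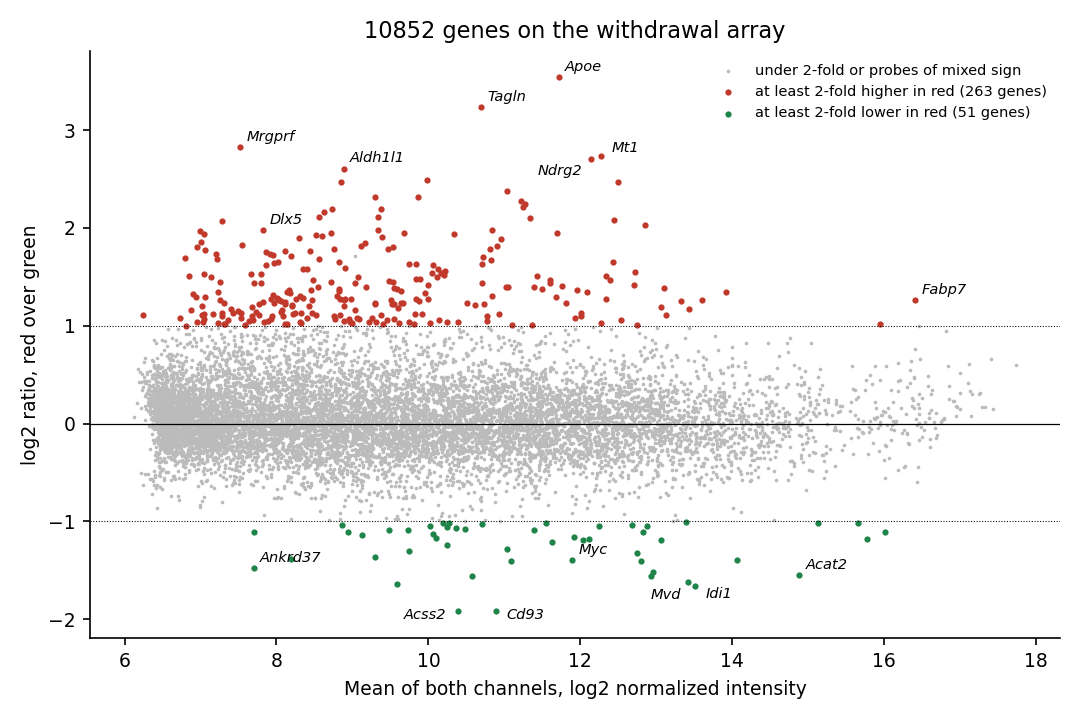
Each point is 1 of 10852 genes; the x axis is the mean of both channels as log2 normalized intensity and the y axis the log2 ratio of red (labelled vector without bFGF) over green (labelled vector with bFGF). The 263 genes at least 2-fold higher in red reach 3.54, while the 51 lower genes reach -1.92; with the sign turned the picture is mirrored about 0.

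The genes furthest above 0 included secreted, contractile, glial and metal-binding proteins. Apoe, the main lipid carrier that glia secrete, had a normalized intensity of 11454 in red and 986 in green. Tagln, an actin-binding protein of smooth muscle, had 5095 in red and 542 in green. Ndrg2, a cytoplasmic protein abundant in astrocytes, had 11581 in red and 1771 in green. All of these were well above background in both channels, with log2 ratios of 3.54, 3.23 and 2.71. Further down the list came Pla2g7, which breaks down platelet-activating factor, at 2.32, Klf15, a zinc finger factor induced by glucocorticoids, at 2.32 (SD 0.08 over its spots) and Gpnmb, a membrane glycoprotein, at 2.11. Ccdc80, a matrix protein, lay at 2.11, Plcd4, a phospholipase C, at 2.10, and Ppp1r1a, an inhibitor of protein phosphatase 1, at 2.03. Cyba, a subunit of NADPH oxidase, had 2389 in red and 425 in green, and Mgmt, which removes alkyl groups from guanine in DNA, 4798 and 924. Vsir, an immune checkpoint receptor, lay at 2.19, Nkain4, which binds the sodium pump, at 2.16, Uap1l1 at 2.21, Sat2 at 1.98 and the mitochondrial protein gene Chchd10 at 1.98. Some of the highest genes were not well above background in green and have a lower bound alone: the orphan receptor Mrgprf was at least 5.49-fold higher in red, Lhb at least 3.65-fold and the ligand Wnt10b at least 2.94-fold.

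Among the 20 lowest genes, 11 make, use or regulate sterols and fatty acids, as the lists below give in pathway order. The others were of mixed kinds. Cd93, a C-type lectin receptor known from endothelium and myeloid cells, had 975 in red and 3680 in green. Slc35d3, of the nucleotide sugar transporter family, had 434 in red and 1357 in green, and its Feature Extraction ratio was -2.26. Zcchc12, a zinc knuckle protein of the nervous system, had 4722 in red and 13481 in green. Gal3st1, which adds the sulfate of sulfatide, lay at -1.36, Nrn1, a small surface protein that promotes neurite growth, at -1.30, and the hormone gene Rln1 at -1.38. Tfrc, the transferrin receptor that brings iron into cells, was at -1.24, with 791 in red and 1864 in green. The ferritin subunit genes Fth1 and Ftl1, which store iron, lay at 0.64 and 0.95.

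Genes of cholesterol synthesis were lower in red along the whole pathway. All 20 measured members lay below 0, 14 of them at least 2-fold, with a median log2 ratio of -1.17, or 1.17 if the sign is turned. In the first steps, Acat2, which joins acetyl-CoA units, had 17665 in red and 51720 in green. Hmgcs1, the next enzyme, had 44965 in red and 96896 in green. Both were more than 2-fold apart, at -1.55 and -1.11. In the isoprenoid steps Mvd lay at -1.62, Idi1 at -1.66 and Fdps at -1.39, while the kinases that act just before Mvd were closer to 0, Mvk at -0.62 and Pmvk at -0.71. At the branch to sterols, Fdft1, the squalene synthase, was almost level, with 8398 in red and 9186 in green. Sqle, which oxidises squalene, lay at -0.90 and Lss, which closes the ring, at -1.32. Of the 9 genes that turn lanosterol into cholesterol, 7 were at least 2-fold lower. They ranged from Hsd17b7 at -1.55 and Tm7sf2 at -1.41 to Nsdhl at -1.07, with Sc5d at -1.28, Cyp51 at -1.19 (SD 0.03 over its spots), Msmo1 at -1.18 and Ebp at -1.11. Dhcr7, which acts near the end of the pathway, lay at -0.92. Under median centring without loess 19 of the 20 lay below 0, 8 at least 2-fold, with a median of -0.86.

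Regulation of sterols by the cell runs through SREBP factors, which are released when membrane cholesterol is low and switch on synthesis and uptake. Insig1, which holds the SREBP complex in the endoplasmic reticulum and is itself a target, had 4391 in red and 11604 in green, a log2 ratio of -1.40. Stard4, which carries sterol inside cells, lay at -1.02 over 2 probes. Srebf2, the factor itself, was at -0.27, Scap at 0.07 and Insig2 at 0.01. Genes that export or sense surplus sterol lay on both sides of 0. Abca1, the exporter that loads sterol onto apolipoproteins, had 426 in red and 127 in green, at 1.75. Abcg1, a second exporter, lay at 0.90, and Nr1h3, the liver X receptor that activates both, at 0.71. Abca7, a lipid exporter of the same family as Abca1, lay at -0.43 (-1.21 with the Feature Extraction ratio). Of 9 measured transporters and receptors, 3 lay below 0, with a median of 0.11. All 8 measured lipid carriers lay above 0, and 3 were at least 2-fold higher: Apoe, Apoc1 at 1.53 (SD 0.18 over its spots) and Clu at 1.10. Scarb1, a receptor for high-density lipoprotein, lay at -0.99 over 2 probes.

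The promoters of 4 sterol genes are shown as examples of a short sequence that many start regions of the pathway share. They were chosen among the lower genes for holding it: Acat2, at -1.55, lay lower than Tm7sf2 but had no match in its window. Each is 300 bases from RefSeq, build GRCr8, from 250 bases before the start of the gene to 50 after, written along the gene. Capitals mark CCAAT or its reverse ATTGG, the letters bound by the factor NF-Y. The windows are chr17:66547475-66547774 for Idi1, chr19:67414925-67415224 for Mvd, chr13:84722705-84723004 for Hsd17b7 and chr1:212789492-212789791 for Tm7sf2, all on the minus strand.
Idi1: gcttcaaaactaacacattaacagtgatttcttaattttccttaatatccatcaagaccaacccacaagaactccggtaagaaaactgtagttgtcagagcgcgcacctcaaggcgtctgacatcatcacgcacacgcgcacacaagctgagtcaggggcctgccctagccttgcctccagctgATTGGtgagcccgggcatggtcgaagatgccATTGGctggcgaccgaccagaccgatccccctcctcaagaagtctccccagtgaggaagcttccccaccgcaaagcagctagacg
Mvd: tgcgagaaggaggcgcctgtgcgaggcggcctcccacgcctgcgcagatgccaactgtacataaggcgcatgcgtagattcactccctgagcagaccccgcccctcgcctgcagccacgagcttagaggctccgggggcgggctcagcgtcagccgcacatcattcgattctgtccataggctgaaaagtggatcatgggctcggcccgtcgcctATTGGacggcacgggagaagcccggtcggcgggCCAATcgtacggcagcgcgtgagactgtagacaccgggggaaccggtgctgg
Hsd17b7: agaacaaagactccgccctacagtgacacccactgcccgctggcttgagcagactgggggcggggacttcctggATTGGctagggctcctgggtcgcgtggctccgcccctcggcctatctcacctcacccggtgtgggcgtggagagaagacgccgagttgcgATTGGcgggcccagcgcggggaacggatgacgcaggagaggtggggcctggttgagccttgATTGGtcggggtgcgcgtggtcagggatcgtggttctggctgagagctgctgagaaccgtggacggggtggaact
Tm7sf2: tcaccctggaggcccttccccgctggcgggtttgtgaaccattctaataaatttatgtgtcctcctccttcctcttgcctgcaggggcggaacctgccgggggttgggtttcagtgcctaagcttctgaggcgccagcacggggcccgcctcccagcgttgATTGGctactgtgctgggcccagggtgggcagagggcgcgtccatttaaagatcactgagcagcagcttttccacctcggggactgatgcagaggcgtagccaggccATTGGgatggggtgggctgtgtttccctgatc
Promoters were on file for 15 of the 20 pathway genes. CCAAT, searched on both strands, occurred in 12 of these 15 windows, or 80%, against 37.7% of 27457 promoters of the same length. At least 2 copies occurred in 10 of the 15, or 66.7%, against 11.5%. TCACNCCAC, a form of the sterol regulatory element, occurred in 0 of the 15 and in 1.13% of all, which says only that these letters are not in these windows. Hsd17b7 carried 3 matches of CCAAT, at 176, 86 and 25 bases before the start. Copies in Idi1 began 66 and 35 bases before it. Msmo1, which is not printed, had 3 matches and lay at -1.18, while Mvk had 5 and lay at -0.62.

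Genes that supply and build fatty acids were lower in red, and genes that burn them were slightly higher. Of 16 measured genes of synthesis and desaturation, 14 lay below 0 and 4 were at least 2-fold lower, with a median of -0.40. Acss2, which makes acetyl-CoA from acetate in the cytosol and nucleus, had 690 in red and 2602 in green, at -1.92. Acly, which makes it from citrate, had 25210 in red and 50852 in green, and Slc25a1, which exports that citrate from mitochondria, 1014 and 2016. These supply genes lay further from 0 than the synthase Fasn at -0.69 or the carboxylase Acaca at -0.44. That did not hold for all 4 measured supply genes, as the remaining one lay at -0.17. Under median centring without loess, 1 of the 4 lay above 0. Scd, the main desaturase, had 4545 in red and 13338 in green, at -1.55, while its brain form Scd2 lay at -0.37, with 57733 and 74449. Elovl6, which lengthens palmitate, was at -1.02 over 2 probes, and Elovl2, which lengthens polyunsaturated chains, at 0.46. For the 8 desaturases and elongases together the median was -0.35, but 0.03 under median centring without loess.

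On the side of oxidation, 16 of 17 measured beta-oxidation genes lay above 0, with a median of 0.29, and 0 were at least 2-fold. Echs1, the hydratase of short chains, was the highest, with 15501 in red and 9245 in green. Decr1, which handles unsaturated chains, lay at 0.63 and Hadh at 0.58, while Acadl, a dehydrogenase of long chains, was the one below 0 at -0.22. Cpt1c, the carnitine palmitoyltransferase of neurons, had 683 in red and 331 in green, at 1.04, and Cpt1a, its liver form, lay at -0.15. The medians of oxidation and synthesis differed by 0.69, and by 0.87 under median centring without loess.

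**Figure D2:**
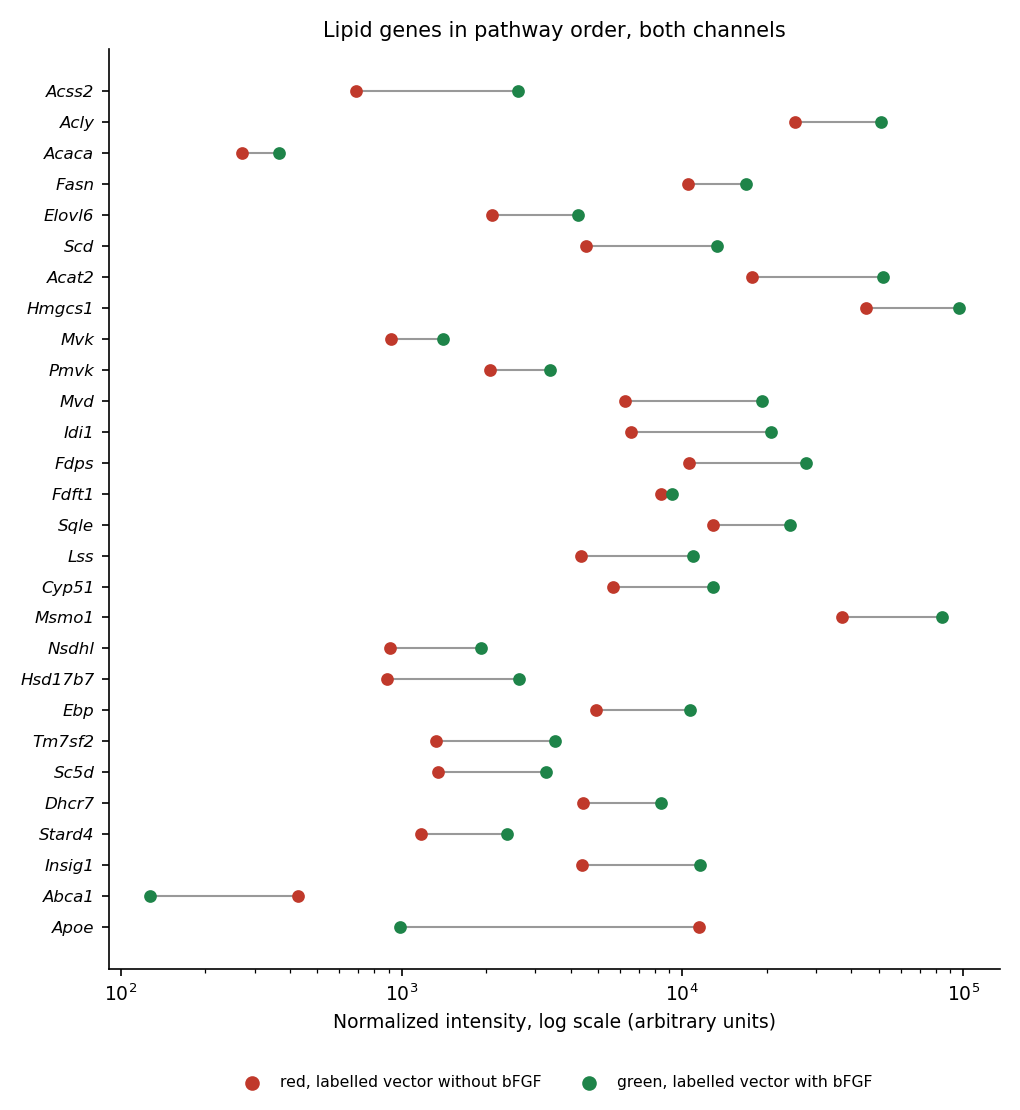
Each row is a lipid gene, from acetyl-CoA supply and fatty acid synthesis at the top through cholesterol synthesis to uptake, regulation and efflux; the x axis is normalized intensity on a log scale, with red and green points for the channels labelled without and with bFGF. Green lies right of red for every synthesis gene shown, narrowly for Fdft1 (8398 against 9186), and red lies far right of green for Abca1 and Apoe; levels of different genes are not comparable.

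Genes of the nucleolus were lower in red while the ribosomal proteins stayed near the middle. Myc, the factor that drives ribosome production in growing cells, had 2342 in red and 6173 in green, a log2 ratio of -1.40 with an SD of 0.02 over its spots. The 3 measured regulators of the list, Myc among them, had a median of -0.08, and 1 lay above 0, at 0.35. All 42 measured nucleolar factors lay below 0, with a median of -0.51 (0.51 if turned), and 1 was at least 2-fold lower. That was Wdr43, a processing factor of the small subunit, with 984 in red and 2070 in green. Ddx21, a nucleolar helicase, had 6736 and 13455, Gnl3, nucleostemin, a GTPase known from stem cells, 7007 and 13864, and Heatr1 552 and 1064. These 3 lay just inside the 2-fold limit. Polr1b, a subunit of RNA polymerase I, was at -0.84. The nearest to 0 were Nop10, a protein of box H/ACA particles, at -0.09, Ebna1bp2 at -0.18 and Brix1 at -0.21. Under median centring without loess 36 of the 42 lay below 0, with a median of -0.23. Of 74 cytosolic ribosomal protein genes, 44 lay above 0 and 0 were at least 2-fold, with a median of 0.05, which became -0.05 with the Feature Extraction ratio and 0.55 under median centring without loess. They ranged from Rpl15 at -0.53 to Rpl41 at 0.59. Whatever the scaling, the ribosomal proteins lay above the nucleolar factors, by 0.55 with loess, 0.50 with the Feature Extraction ratio and 0.77 under median centring.

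Genes of DNA replication were lower in red, and those of mitosis were not. Of 42 measured replication and S phase genes, 40 lay below 0 and 2 were at least 2-fold lower, with a median of -0.39 (0.39 if turned). Cdc6, which loads the helicase at origins, had 726 in red and 1583 in green. Orc1, the origin subunit that recruits it, had 586 and 1241. The helicase subunits followed, with Mcm6 at -0.69, Mcm4 at -0.66, Mcm3 at -0.63, Mcm7 at -0.57 and Mcm2 at -0.29. All 15 licensing and helicase genes lay below 0, with a median of -0.58. The 27 genes of polymerases, clamp and nucleotide supply had a median of -0.36, from Rpa3 at -0.58 to Rrm2, a subunit of ribonucleotide reductase whose probes differed in sign, at 0.09. Among 41 measured genes of mitosis and G2/M, 22 lay above 0 and 0 were at least 2-fold, with a median of 0.01. Cdk1, the mitotic kinase, had 40578 in red and 42500 in green, Plk1 19668 and 20525, and Ccnb1 7843 and 7132. Bub1, a checkpoint kinase, lay at -0.43 and Mad2l1, which it works with, at -0.61, the lowest of the list. Under median centring without loess the replication list lay at -0.13, with 30 of 42 below 0, and the mitosis list at 0.33, with 39 of 41 above. The medians differed by 0.40 with loess and by 0.45 under median centring.

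Regulators of the step from G1 to S differed by gene. Ccnd1, the D cyclin that growth factors induce, had 7034 in red and 13441 in green, at -0.93. Ccnd2 was level, with 6016 and 6066, and Ccnd3 lay at 0.13. Cdkn1a, the CDK inhibitor p21, had 10570 in red and 5858 in green over 2 probes, at 0.85. Rbl2, the pocket protein p130 of resting cells, lay at 0.77, Btg1, which slows division, at 0.66, and Cdk6 at 0.73. Of 9 inhibitor genes, 7 lay above 0 and 0 were at least 2-fold.

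**Figure D3:**
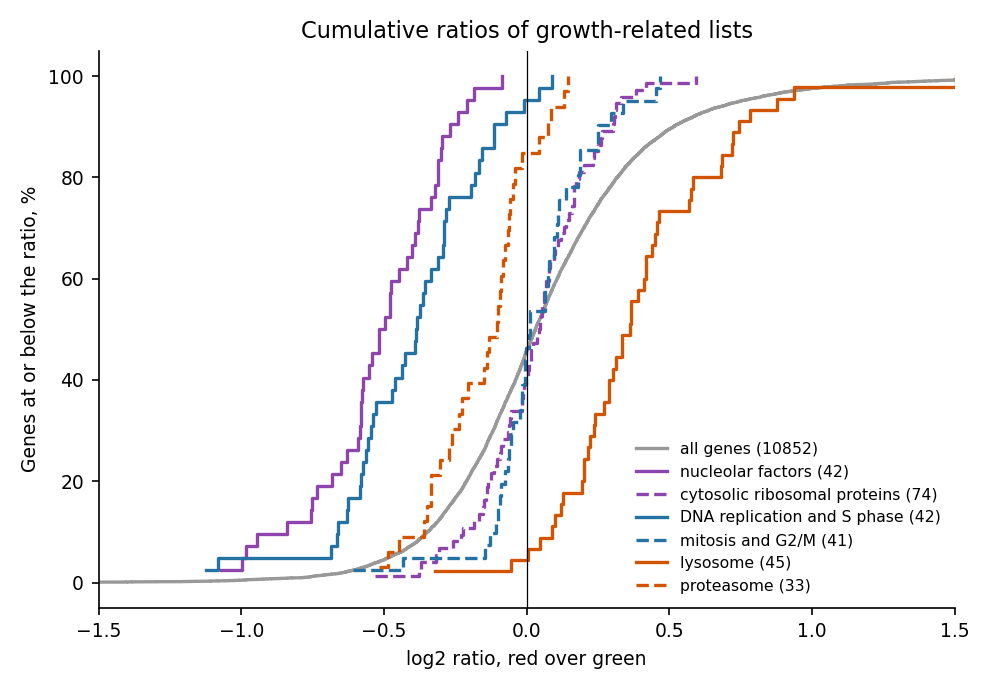
Each line gives, for 1 list, the percentage of its measured genes (number in brackets) at or below the log2 ratio on the x axis, red over green, with all genes in grey. Nucleolar factors and replication genes lie left of all genes and lysosome genes right of them, while ribosomal proteins (median 0.05, but -0.05 with the Feature Extraction ratio), mitosis genes (0.01) and proteasome genes (-0.10, but 0.20 under median centring without loess) lie near the middle.

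Feedback genes of the FGF pathway, which ERK signalling normally induces, were few on the array, and 0 of the 8 measured feedback inhibitors were at least 2-fold apart. Of these 8, 4 lay below 0, but 3 of the 4 above 0 (Spred2, Dusp4 and Il17rd) were not well above background in green. Of the 5 well above background in both channels, 4 lay below 0, with a median of -0.49, and under median centring without loess 6 of the 8 did. Spry4, a Sprouty inhibitor of receptor kinases, had 557 in red and 919 in green, at -0.72. Dusp5, a nuclear ERK phosphatase, had 498 and 825, at -0.73 with an SD of 0.05 over its spots, and Spry2 lay at -0.49. Dusp6, the cytoplasmic ERK phosphatase, lay at 0.13 with an SD of 0.01, with 24588 in red and 22512 in green. The ETS factors Etv4 and Etv5, which FGF also induces, were at -0.38 and -0.07, the probes of Etv5 differing in sign. Among receptors and cofactors, Fgfr3 had 736 in red and 307 in green, at 1.26, and Gpc4, a heparan sulfate proteoglycan, 2562 and 1197, at 1.10. Fgfr1 lay at 0.13. The 4 probes of Fgfr2 disagreed, from -0.19 to 1.54, with a median of 0.13.

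Immediate early genes, which respond within minutes to growth factors, also differed by gene. Nr4a1 had 609 in red and 1158 in green, at -0.93, Egr1 lay at -0.78, Klf10 at -0.86 and Ier2 at -0.52. Fosl1, a late member of the FOS family, lay at 0.92 and Jund at 0.55. Ccn2, a secreted target of SRF and YAP, was the 1 member counted, at least 2.06-fold higher in red, not being well above background in green. The median of the 23 measured genes was 0.10.

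Astrocyte genes were higher in red, some of them strongly: 11 of 24 measured members, or 45.8%, were at least 2-fold higher in red, with a median of 0.83, or -0.83 if the sign is turned. Aldh1l1, a folate enzyme used to mark astrocytes, had 1168 in red and 192 in green. Timp4, an inhibitor of matrix proteases, had 3346 and 970 over 2 probes, and the sodium pump subunit Atp1b2 had 9763 and 3114. Slc7a10, a carrier of serine and glycine, was at 1.34, Mlc1, a membrane protein of astrocyte endfeet, at 1.26, and S100b, a calcium-binding protein, at 1.22 over 2 probes. Id4, an inhibitor of helix-loop-helix factors, lay at 1.27 and the granule protein gene Scg3 at 1.13. Not all astrocyte genes followed. Gja1, the gap junction protein connexin 43, lay at 0.19, the water channel Aqp4 at 0.12 with probes of both signs, and the potassium channel Kcnj10 was not well above background in green. The glutamate transporters Slc1a3 and Slc1a2 were at 0.75 and 0.62, and the glutamine synthetase Glul at 0.88. Radial glia share many of these genes. Fabp7, the brain lipid-binding protein of radial glia, had 134801 in red and 56194 in green, at 1.26, while Vim, their intermediate filament, had 32395 and 45442, at -0.49, and Nes 24331 and 21446.

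Contractile and matrix genes were higher in red as well. Of 16 measured smooth muscle genes, 15 lay above 0 and 4 were at least 2-fold higher. Acta2, smooth muscle actin, had 906 in red and 198 in green, Myl9, a regulatory myosin light chain, 6485 and 1679, and Tpm2 404 and 167. Tagln stood with them. In the wider actin list Anxa2, an annexin that binds actin and membrane, lay at 1.63 and S100a6 at 1.13, while Arpc1b, a subunit of the ARP2/3 complex, was lower, with 1844 in red and 3905 in green. Des, of muscle filaments, was not well above background in green, and Myh11, smooth muscle myosin, lay at 0.33. Fibroblast and meninges markers lay on the same side of 0: 11 of 11 measured lay above 0, with a median of 0.32 and Acta2 the 1 counted. Under median centring without loess 8 lay above 0. The defining genes Col1a1 and Col3a1 lay at 0.55 and 0.45, Dcn at 0.08, and Lum was not well above background in green. Net signals summed over Col1a1, Col3a1, Dcn and Lum, not normalized, were 3416 in red and 1477 in green. The part of such cells in the contractile result was not tested.

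Of 57 measured matrix genes, 44 lay above 0 and 8 were at least 2-fold higher, or 14%, with a median of 0.29. Col5a3, a fibrillar collagen chain, had 11419 in red and 2707 in green, while its partner Col5a1 lay at -0.12. Sparc, a matrix glycoprotein, had 19325 and 8053, and Tnr, tenascin R of brain matrix, 395 and 195. Some proteases and their inhibitors were higher as well: Mmp2, a gelatinase, lay at 1.38 over 2 probes, Timp2 at 1.34 and Mmp14, which activates Mmp2, at 0.89. Timp3 and Mmp11 were not well above background in green and were at least 2.35-fold and 2.31-fold higher in red. Emilin1, an elastic fibre protein, was the lowest at -0.69. Among cadherins, Cdh6, a type II cadherin, had 5240 in red and 1083 in green, Cdh13, which lacks a cytoplasmic tail, lay at 1.12 over 2 probes and Cdh2, N-cadherin, at 0.52.

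**Figure D4:**
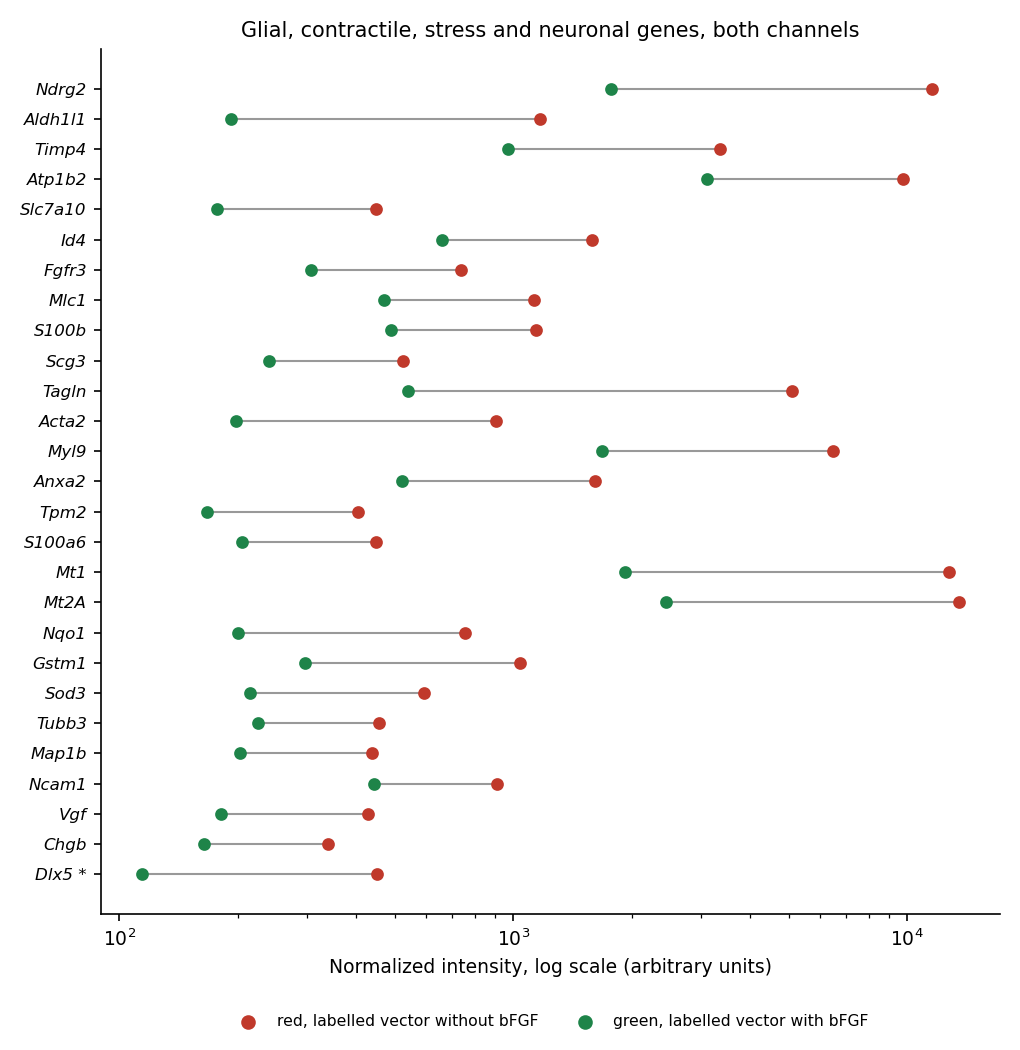
Each row is a gene of the glial, contractile, metallothionein, antioxidant or neuronal lists, with the normalized intensity of the red and green channels on a log x axis; the asterisk marks Dlx5, which was not well above background in green. The genes were picked among those at least 2-fold higher in red, so red lies right of green for each by that choice. They run from Tagln (5095 against 542) to Tubb3 (457 against 225), and levels of different genes are not comparable. Members of these lists that were lower in red, among them Arpc1b, Camk2b and Txn1, are not shown.

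Neuronal genes lay above 0 in most cases, but few were 2-fold. Of 23 measured genes of neuronal cytoskeleton and adhesion, 19 lay above 0 and 3 were at least 2-fold higher, with a median of 0.41. Map1b, a microtubule-associated protein of growing axons, had 439 in red and 203 in green, at 1.12. Tubb3, the neuronal tubulin, had 457 and 225, and Ncam1, a cell adhesion molecule, 910 and 442. Gap43, of growth cones, was bright at 11807 and 6842, a ratio of 0.79. Dpysl3 and Crmp1, which act in axon guidance, lay at -0.44 and -0.34. For synapse and vesicle genes the median was 0.26 over 28. The granule proteins Vgf and Chgb were counted, at 1.24 and 1.05, and Camk2b, a calcium-dependent kinase, was lower over 2 probes, with 824 in red and 1669 in green. None of the 15 vesicle release genes was counted: Snap25 lay at 0.50 and Syn1 at 0.01.

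Of 64 measured ion channels and transmitter receptors, 50 lay above 0 and 5 were at least 2-fold higher, with a median of 0.29. Gabrg1, a GABA receptor subunit, had 1187 in red and 433 in green, Scn3b, a sodium channel subunit, 1672 and 626, and the glutamate receptor Gria3 1456 and 611 over 2 probes. Gabrb1 and Chrna4 were not well above background in green and were at least 2.55-fold and 2.18-fold higher in red. Kcna2, a potassium channel, was the lowest at -0.66. Epha5, an ephrin receptor, was the 1 of 45 axon guidance genes counted, at 1.08, and Sema7a lay at -0.69. Proneural and neuronal identity factors lay closer to 0: of 12 measured, 7 lay above 0 and 0 were at least 2-fold, with Sox4 at 0.70. The interneuron factor Dlx5 was at least 3.95-fold higher in red, not being well above background in green, while Dlx1 lay at 0.18.

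Of 14 measured oligodendrocyte lineage genes, 7 lay above 0 and 0 were at least 2-fold, with Pdgfra, the receptor of their precursors, at 0.51 and Mbp at 0.16. Of 25 measured genes of motile cilia, ependyma and choroid plexus, 21 lay above 0 and 4 were at least 2-fold higher in red. Of the 25, 6 were not well above background in green, and under median centring without loess 8 lay below 0. Foxj1, the regulator of motile cilia, had 824 in red and 213 in green, Rfx2, which works with it, 1414 and 587, and Pierce1, an axoneme protein, 1084 and 196. Of 18 measured axoneme and basal body genes, 15 lay above 0 and 1 was counted. Enpp2, a lysophospholipase of choroid plexus and glia, lay at 1.34, and Ttr, transthyretin of choroid plexus, at 0.90 (1.28 with the Feature Extraction ratio), while the choroid plexus markers Kl and Folr1 were not well above background. Of 4 measured choroid plexus genes, 3 lay above 0, and 2 under median centring without loess. Their part in the cilium values was not tested.

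Signalling lists had few counted members. Notch genes had a median of 0.41 over 23, with 17 above 0 and 0 counted; the ligand Dll1 lay at 0.59, the modifier Mfng at 0.62 and Jag1 at -0.39. In the Wnt list Dkk3, a secreted Dickkopf protein, was counted, with 807 in red and 234 in green, Sfrp2 lay at 0.98, Wnt7a at 0.92 and the coreceptor Lrp5 at -0.77. The growth factor Mdk, midkine, had 1311 in red and 382 in green, while its relative Ptn lay at 0.46. Igfbp3, which binds insulin-like growth factors, lay at 0.87 with 0 of 16 genes of that system counted.

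Metallothioneins are small proteins that bind zinc and copper, and 2 of the 3 measured were at least 2-fold higher in red. Mt1 had 12799 in red and 1924 in green, at 2.73, and Mt2A 13538 and 2445 over 2 probes, at 2.47. Mt3, the brain form, had 101159 and 72942, at 0.47. Mtf1, the zinc sensor that switches them on, lay at -0.20, and of 9 measured zinc transporters 0 were at least 2-fold, with Slc30a1, another target of Mtf1, at 0.08. The promoters of Mt1 and Mt2A are shown with matches of the metal response element in capitals, the site that Mtf1 binds. The forms searched were TGCACNC and TGCGCNC on both strands, and matches may overlap. Both windows are 300 bases from RefSeq, build GRCr8, on the minus strand, chr19:10832926-10833225 for Mt1 and chr19:10838659-10838958 for Mt2A.
Mt1: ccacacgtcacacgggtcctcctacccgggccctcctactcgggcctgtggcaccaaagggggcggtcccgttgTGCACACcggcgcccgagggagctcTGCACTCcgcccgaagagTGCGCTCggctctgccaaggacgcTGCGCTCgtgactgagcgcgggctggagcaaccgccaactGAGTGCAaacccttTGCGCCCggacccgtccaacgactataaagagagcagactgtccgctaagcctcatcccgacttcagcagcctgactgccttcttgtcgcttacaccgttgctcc
Mt2A: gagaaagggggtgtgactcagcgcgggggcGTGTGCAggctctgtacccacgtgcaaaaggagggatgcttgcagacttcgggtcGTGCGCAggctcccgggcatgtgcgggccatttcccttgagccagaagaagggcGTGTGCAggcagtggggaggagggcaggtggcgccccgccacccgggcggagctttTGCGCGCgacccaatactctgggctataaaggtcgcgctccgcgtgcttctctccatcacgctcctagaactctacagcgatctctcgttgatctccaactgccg
Mt1 held 6 matches, Mt2A 4 and Mt3 3. Of all 27457 promoters of that length, 25% held at least 1, 1.81% at least 3, 0.455% at least 4 and 0.0328% at least 6. A match is a run of letters and not a measured site.

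Several genes of glutathione conjugation were higher in red, and the peroxiredoxins ran from Prdx4 at -0.35 to Prdx5 at 0.42. Of 46 measured genes, 8 were at least 2-fold higher in red, or 17.4%, with a median of 0.29. Nqo1, a quinone reductase and target of NRF2, had 753 in red and 200 in green. The glutathione transferase Gstm1 had 1043 and 297, and Gstt2 787 and 325. Gsta1 lay at 1.19 (SD 0.15 over its spots), Mgst1 at 1.08 and the cystine carrier Slc7a11 at 1.04 over 2 probes. In glutathione synthesis itself, Gclc lay at 0.11, Gss at -0.21, and Gclm was not well above background in red. Sod3, the secreted superoxide dismutase, had 595 in red and 215 in green, while Sod1 lay at 0.22 and Sod2 at 0.27. Txn1, thioredoxin, was at -0.60 with an SD of 0.05 over its spots and its inhibitor Txnip at 1.13. The antioxidant response element, searched as TGACNNNGC on both strands, occurred in 9 of 38 promoters of the list on file, or 23.7%, against 12.2% of all. Of these 9 genes, Gclm, Prdx1 and Prdx4 lay below 0, at -0.63, -0.34 and -0.35, and the others above it. Gsta1 alone among them was at least 2-fold higher in red.

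Chaperones lay on either side of 0. The subunits of the chaperonin that folds actin and tubulin were below it, with Cct2 at -0.59, Tcp1 at -0.56, Cct5 at -0.55, Cct4 at -0.54 and Cct7 at -0.49. The small heat shock proteins were above, with Cryab, the crystallin of stressed glia, at 5351 in red and 1133 in green, and Hspb1 at 332 and 142. Over all 28 measured heat shock genes 22 lay below 0, with a median of -0.31 (-0.07 under median centring without loess). Genes of the unfolded protein response had a median of 0.03 (-0.01 with the Feature Extraction ratio) and 0 of 19 counted, with Hspa5, the main chaperone of the endoplasmic reticulum, at -0.05.

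Among genes of cell death and stress, Bbc3, which activates mitochondrial apoptosis, was the 1 of 10 measured BH3-only genes counted, and 4 of these 10 lay below 0. Bbc3 had 1870 in red and 608 in green, Ccng1 1507 and 486, and Tp53inp1 800 and 255. Ddit4, an inhibitor of mTOR, had 1219 and 448 over 2 probes. Bax, an effector of mitochondrial apoptosis, lay near 0 at 0.06, and Gtse1 at 0.23. In the amino acid response Slc38a2, a carrier of neutral amino acids, was lower, with 2785 in red and 6332 in green, and Atf4 lay at -0.57 with an SD of 0.02. The serine synthesis genes Psat1 and Phgdh lay at 0.83 and 0.59. The median of the list was 0.33 over 28 genes. All 7 measured caspase genes lay above 0, led by Casp6 at 0.77, with 0 counted. With the Feature Extraction ratio 6 of the 7 lay above 0, and likewise 6 under median centring without loess. In the interferon list Ifi27 and Gbp2 were counted, with 8053 in red and 3336 in green and with 397 and 180, of 29 measured genes.

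Lysosome genes were higher as a list without being 2-fold. Of 45 measured, 43 lay above 0, with a median of 0.36 (-0.36 if turned), and 1 was counted, the peptidase Dpp7, with 4652 in red and 1639 in green. Cathepsins led the rest, with Ctsh at 0.94 and Ctsb at 0.78, the latter at 21472 and 12481, followed by Tpp1 at 0.74 and Psap, which activates lipid hydrolases, at 0.72. Tfeb, the regulator of lysosome genes, lay at -0.06 and Cd68, a macrophage marker, at -0.32. Of 21 autophagy genes, 16 lay above 0, with Wipi1 at 0.88 and Map1lc3a at 0.56. Proteasome genes had a median of -0.10, with 28 of 33 below 0, but of 0.20 with 26 above 0 under median centring without loess. The median over all genes was 0.17 in that setting. The lysosome median lay above that of the proteasome by 0.47 with loess and by 0.40 under median centring.

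The respiratory chain was slightly higher, with 41 of 55 measured genes above 0 and a median of 0.13. Under median centring without loess all 55 lay above 0, but that setting also put 7384 of all 10852 genes above 0. Cox6a2, the muscle form of a cytochrome oxidase subunit, was the 1 counted, with 378 in red and 131 in green. Glycolysis and hypoxia genes had a median of -0.12, but of 0.11 under median centring. Ankrd37, a hypoxia target, had 125 in red and 348 in green, an SD of 0.13 over its spots, and Pfkp, a phosphofructokinase, lay at -0.61. Pdk1, a kinase that closes the entry of pyruvate into mitochondria, lay at 0.80. Genes of splicing had a median of -0.18 and chromatin modifiers of -0.10, but of 0.12 and 0.16 under median centring. The median over all genes was 0.17 in that setting. Hdac11, a deacetylase of the brain, was the 1 of 42 chromatin genes counted, with 2743 in red and 1015 in green, and Smarca2, a remodelling ATPase, lay at 0.93.

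**Figure D5:**
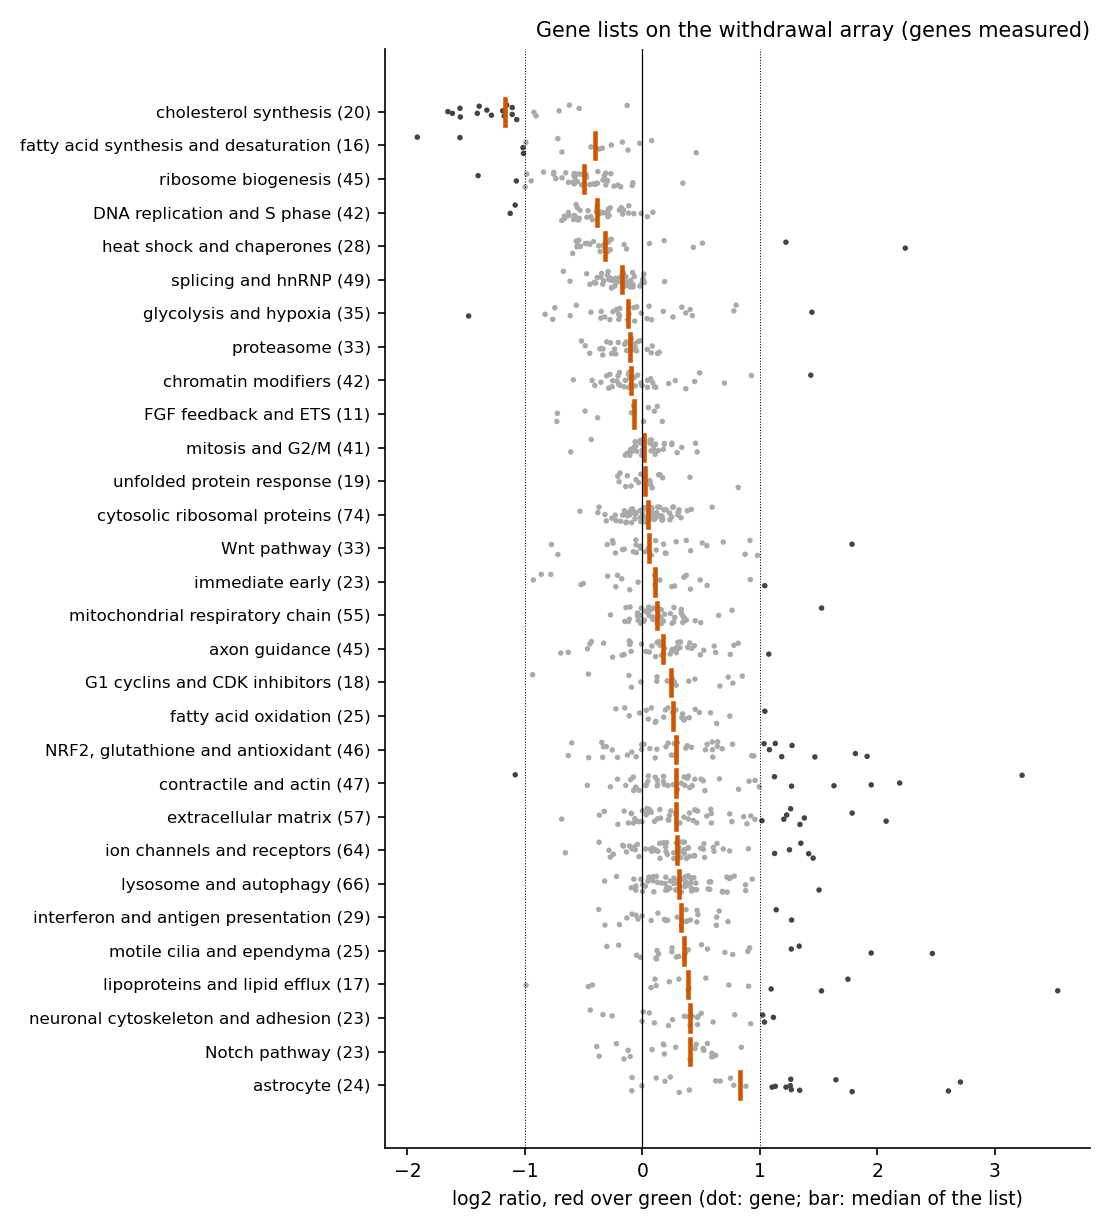
Each dot is a measured gene of the list named at the left (number of genes in brackets) and the orange bar the list's median; the x axis is the log2 ratio of red over green, with dotted lines at the 2-fold limits. Cholesterol synthesis (median -1.17) and the astrocyte list (0.83) lie at the ends. The medians of glycolysis, proteasome, splicing and chromatin genes lie above 0 under median centring without loess, where that of all genes is 0.17. Those of ribosomal proteins and the unfolded protein response lie below 0 with the Feature Extraction ratio.

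Markers of other cell types the culture could hold lay on both sides of 0. Of 10 measured microglia and blood genes, 4 lay above 0 and 0 were at least 2-fold. Hba-a1, a haemoglobin chain of red blood cells, had 2291 in red and 4087 in green, at -0.83. Over Aif1, Cx3cr1, Csf1r and C1qa the summed net signals, not normalized, were 1103 in red and 793 in green, most of it from Cx3cr1. Of 14 endothelium and pericyte genes, 5 were measured, with a median of 0.20 that became -0.10 under median centring and -0.01 with genes above background in both channels. Kdr, a receptor for VEGF, lay at 0.39 and Cdh5, an endothelial cadherin, at -0.01.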

How the data were processed

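Total RNA was isolated with Trizol, amplified and labelled with Cy3 or Cy5 by an Agilent linear amplification kit, per the labels' protocols. The scanner files deposited by the authors hold, per the file headers, spot and background intensity as medians over pixels, not normalized, with the log10 ratio of red over green and flags of 0 or 1. They name Feature Extraction 11.5.1.1, protocol GE2_1105_Oct12, array design 028282 and rn4 as the genome build. The version in the submitters' processing notes is 8.5.1.1. A value table deposited by the authors gives a linear ratio whose scale, centring and direction are not stated. After a constant, its first column equalled red over green for 100% of 28395 probes within 0.05 log2, with a median of 0.932, and it was not used further.

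Of 44254 spots, 42877 carried 30367 gene probes, and 534 outlier spots were left out. Signals were corrected by normexp (offset 50) and normalized by loess with limma 3.58.1 (R 4.3.3), control spots having weight 0; Python 3.11.15, numpy 2.4.6, pandas 2.3.3 and matplotlib 3.10.9 did the rest. The printed intensities are these normalized values. Spots of a probe were averaged, and 20328 probes were well above background in at least 1 channel. Accessions were matched to RefSeq symbols of GRCr8, which named 60.4% of probes. A gene is the median of its kept probes. Of 1863 genes with 2 or more kept probes, the probes of 534 differed in sign. All genes measured outside these 1863 rest on 1 probe. "At least" folds use the lowest signal well above background as a floor, and 3 counted genes have a bound under 2. The counting step was run on simulated data whose changes were set well past the 2-fold limit or at 0. That run cannot test differences between cultures or dyes, or genes that are dim in green. Some genes counted in the lists are not reported here by name.

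Named genes are the members of each list 2-fold by both the loess and the Feature Extraction ratio, up to 6 each way per role, the first gene of each role, the 30 highest and 20 lowest genes, the cell type markers and examples of a list's range. The arrays, lists and motifs were chosen with earlier results of these data known. Alternatives were an offset of 10, the Feature Extraction ratio, median centring without loess, a filter on both channels, the mean over probes, and outlier spots kept.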

Additional observations from a re-analysis of the deposited data

How the results depend on the processing

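The counts of genes at least 2-fold higher in red and genes at least 2-fold lower in red, 263 and 51, became 445 and 91 with an offset of 10 and 887 and 237 with the Feature Extraction ratio. Median centring without loess gave 473 higher and 34 lower, a share of 93.3% higher (6.71% if turned). Requiring both channels above background gave 237 and 52, and the mean over probes or outlier spots kept changed these counts by at most 1. All 51 lower genes and 260 of 263 higher genes were also counted by the Feature Extraction ratio. The direction of the median held for 49 of 49 lists with an offset of 10 for 45 with the Feature Extraction ratio and for 44 under median centring. Those whose sign turned under median centring were glycolysis and hypoxia at 0.1142, proteasome at 0.2007 and splicing and hnRNP at 0.1160. Chromatin modifiers, at 0.1603, and endothelium and pericyte markers, at -0.0993, turned as well. The median over all genes was 0.1699 in that setting. Glycolysis, splicing and chromatin genes thus still lay below the median over all genes, and the proteasome lay above it. Endothelium and pericyte markers also turned with both channels required, at -0.0051, as 3 genes were left, and cytosolic ribosomal proteins with the Feature Extraction ratio, at -0.0518. That ratio also took sterol uptake and regulators from 0.01 to -0.22, oligodendrocyte lineage genes from 0.03 to -0.05 and the unfolded protein response from 0.03 to -0.01. The cause was not tested. Of 195 named genes the Feature Extraction ratio moved 31 by over 1.5-fold, and 177 kept their sign under median centring. Signal over background limits 998 genes that were not well above background in green and 59 in red. No paired analysis was possible because each channel held 1 RNA and there is 1 array.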

Other observations

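The genes of this paragraph were chosen after their values were seen. They are single genes outside the lists, at least 2-fold apart, and stand for no group. Acss1, the mitochondrial counterpart of Acss2, had a log2 ratio of red over green of 1.41. Oxct1, which lets cells burn ketone bodies, lay at 1.13, Abat, which breaks down GABA, at 1.77, and Pc, pyruvate carboxylase, at 1.22. The adhesion molecule Vcam1 lay at 1.91, the lipid receptor S1pr1 at 1.56, the endothelin receptor Ednrb at 1.38 and the chemokine Cxcl12 at 1.39. F3, tissue factor, lay at 1.88, Cav1, the coat protein of caveolae, at 1.76, and the galectins Lgals3 and Lgals1 at 1.94 and 1.20. Cyp7b1, which hydroxylates oxysterols, was at 1.89, on the other side of 0 from Cyp51. Among the lower genes, Pprc1, a coactivator of mitochondrial genes in growing cells, lay at -1.21, Jmjd6 at -1.17 and Pcyt2, which makes phosphatidylethanolamine, at -1.05.

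Genes were also grouped by the letters before the first digit of their symbol, which gave 70 groups of at least 15 measured genes. The lowest medians were Rad at -0.30, Ddx, the helicases, at -0.26, Nup, the nuclear pore, at -0.25 with 16 of 19 below 0, and Eif, the translation initiation factors, at -0.17 with 34 of 46 below 0. The highest were Nudt at 0.32 and Col at 0.28. Of 231 solute carriers 9 were at least 2-fold higher in red and 2 lower, beside 2.42% and 0.47% of all genes measured. Slc27a3, of the fatty acid transport family, lay at 1.95, Slc16a6 at 1.36 and the arginine carrier Slc7a3 at 1.29. Of 121 genes whose symbol starts with Or, nearly all olfactory receptors by name, 6 were counted higher, and none of these 6 was well above background in green. Or10p22 was at least 2.85-fold and Or1e1 at least 2.71-fold higher in red.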
